A study of Mus musculus with 11 samples.

Results

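Immediate early genes are genes whose transcription rises within minutes of a stimulus without new protein synthesis. The 10 described here were Arc, Npas4, Fos, Fosb, Junb, Egr1, Egr2, Nr4a1, Ier2 and Dusp1, chosen by symbol as a set of well-known genes of this class. Earlier results of these data were known when they were chosen. All 10 were among the 39179 genes of the count table, and all 10 passed the filter on low counts that kept 14104 genes for testing. RNA was sequenced from GFP-positive cells sorted by flow cytometry from the V-SVZ, the ventricular-subventricular zone, where neurons are born beside the lateral ventricle, of CD1/Swiss mice at postnatal day 2 (P2). The 6 control libraries carried Gsh2-Cre with 1 floxed and 1 wild-type allele of Zeb2, written Zeb2fl/wt, and the 5 mutant libraries Gsh2-Cre with 1 floxed and 1 null allele, written Zeb2fl/ko. Both groups carried the reporter RCE, which makes GFP in cells that have expressed Cre and in their progeny. The Gsh2 promoter drives Cre in progenitors of the ventral forebrain, so GFP marks cells where the floxed copy can recombine in either genotype, whereas other cells of a mutant also carry the null copy. Whether the libraries stem from different animals is not stated in the labels, and p-values thus reflect only how far these libraries differ, which may be technical.

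In neurons, calcium entry and kinase signalling act on transcription factors already bound at the promoters of these genes, among them CREB, which binds cyclic AMP response elements, and serum response factor, which binds CArG boxes. Fos, Fosb, Junb, Egr1, Egr2, Nr4a1 and Npas4 encode transcription factors that act on later genes, Arc encodes a protein of excitatory synapses, and Dusp1 encodes a phosphatase that shuts off MAP kinases. Arc and Npas4 are closely tied to neuronal activity, whereas Fos, Junb and Egr1 also rise in many cell types when tissue is dissociated with enzymes. The cells here were released from tissue with papain and sorted before lysis, and the counts do not separate RNA made in the tissue from RNA made during those steps.

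The start site regions of 7 of the 10 genes, taken from RefSeq (GRCm38.p6), are shown because signals that induce this class of gene act through its promoters. Each region covers 250 bases before and 50 bases after a start site, and Arc, Egr1 and Ier2 had no entry in that table. Stretches upstream of the start site are printed 5′ to 3′ on the strand of the gene, with capitals for TGACG on either strand, the core of a cyclic AMP response element, and for a CArG box.
Npas4: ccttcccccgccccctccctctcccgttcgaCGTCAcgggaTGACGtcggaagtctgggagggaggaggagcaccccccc
Fos: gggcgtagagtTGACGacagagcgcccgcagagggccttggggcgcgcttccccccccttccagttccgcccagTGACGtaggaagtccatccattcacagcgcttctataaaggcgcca
Junb: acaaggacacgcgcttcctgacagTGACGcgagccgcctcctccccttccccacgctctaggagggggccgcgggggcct
Fosb: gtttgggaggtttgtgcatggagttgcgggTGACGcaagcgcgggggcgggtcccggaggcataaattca
Nr4a1: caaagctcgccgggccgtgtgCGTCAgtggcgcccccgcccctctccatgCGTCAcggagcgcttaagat
Dusp1: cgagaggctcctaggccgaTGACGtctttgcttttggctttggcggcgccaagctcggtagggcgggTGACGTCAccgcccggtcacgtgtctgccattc
Egr2: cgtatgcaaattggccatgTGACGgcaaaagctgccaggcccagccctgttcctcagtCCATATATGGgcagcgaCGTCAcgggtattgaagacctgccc
These lie at chr19:4990102-4990181 (minus strand), chr12:85473750-85473869 (plus), chr8:84978799-84978878 (minus), chr7:19310066-19310135 (minus), chr15:101266756-101266825 (plus), chr17:26508583-26508682 (minus) and chr10:67537739-67537838 (plus). TGACG was found, on either strand, in at least 1 region of each of the 7 genes, against 23.05% of the 27025 genes in the table. The longer palindrome TGACGTCA, which contains TGACG, was found in Dusp1 alone among the 7 and in 2.03% of all genes, and a CArG box in Egr2 alone and in 1.81%. Copies more than 250 bases before a start site lie outside these regions and were not searched for. Egr2 had 5 entries, and its printed stretch came from 1 picked because it held TGACG. Counted from the start site, the copies in Npas4 began at -179 (antisense) and -169 (sense), and those in Fos at -129 and -66. Npas4, which fell in the mutants, and the 6 genes that did not pass the test all held this motif, Arc was not examined, and a match of letters does not show that a factor was bound.

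Libraries held 6833981 to 13073505 counts. Zeb2 itself stood at 238 ± 46.7 CPM (SD, n = 6) in controls against 303 ± 63.8 CPM (SD, n = 5) in mutants, where CPM is a count relative to the TMM-scaled library size (edgeR adjusted p = 0.294). A count over the whole gene also takes reads from exons that the deletion leaves, so it does not check the genotype, and directions rest on the labels. The groups were not balanced for sex as read from the counts. Controls 1, 2, 3 and 6 held counts of 4 Y-linked genes, while controls 4 and 5 and all 5 mutants held 0. All 12 marker genes of the labelled lineage passed the filter, and their summed level was 2896 to 4434 CPM in control and 3782 to 4921 CPM in mutant libraries. Gad2, which encodes a GABA-synthesising enzyme, rose from 334 ± 75.6 to 670.3 ± 76.0 CPM (SD, n = 6 and 5; edgeR adjusted p = 0.000894). The other 11 did not pass, with log2 fold changes from -0.62 for Sp9 to 0.56 for Gad1. Calls covered 4.42% of all genes tested, 1.74% lower and 2.68% higher. At an unadjusted edgeR p under 0.05 there were 5 of the 12, where 8.35% of all genes were lower and 8.96% higher. The markers are thus not shown to be alike in both groups.

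Both activity-linked genes fell in the mutants, by about 4-fold in the means over all 11 libraries. Controls 4 and 5 were the highest for both. Against the other 4 controls the log2 fold changes were -0.997 for Arc and -1.06 for Npas4 (edgeR adjusted p = 0.0597 and 0.12). None of the 3 dissociation-linked genes passed the edgeR test, with Junb at -0.87, Egr1 at -0.24 and Fos at 0.25. A difference between these 2 classes was not tested. Of the 10 genes 2 were called lower and 0 higher at an adjusted p of 0.05, where 4.42% of all genes tested were called, 1.74% lower and 2.68% higher. At an unadjusted p under 0.05 the numbers were 5 lower and 0 higher, where 8.35% of all genes were lower and 8.96% higher. DESeq2 called 3 lower, with Junb added, and limma-voom called 0 lower (adjusted p = 0.0712 for Arc and 0.0804 for Npas4); both called 0 higher. The median log2 fold change of the 10 genes was -0.52, against -0.02 over all genes tested. The 10 genes were chosen with earlier results of these data known, so these counts and this median are not a test of the set.

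Arc (ENSMUSG00000022602, chromosome 15, 74669083 to 74672570, minus strand, GRCm38) encodes a cytoskeleton-associated protein that regulates AMPA receptors at synapses. It stood at 12.6 CPM in the lowest control, a median of 23.6 and 96.4 in the highest. The mutants 1 to 5 stood at 10.1, 11.1, 11.2, 7.65 and 9.14 CPM. Every mutant therefore lay below every control, an order seen with mutants lower in 2.03% of the genes tested and for Arc alone among the 10. The means were 38.2 ± 32.2 CPM (SD, n = 6) and 9.83 ± 1.48 CPM (SD, n = 5), a 3.89-fold fall (log2 fold change -1.96, SE 0.454, edgeR adjusted p = 0.0224). The high controls were control 5 at 96.4 and control 4 at 55.0 CPM, and the other controls reached at most 27.4 CPM.

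Npas4 (ENSMUSG00000045903, chromosome 19, 4984355 to 4990316, minus strand) encodes a transcription factor induced by calcium entry in neurons that controls inhibitory synapse number. It stood at 17.6 CPM in the lowest control, a median of 37.3 and 146 in the highest. The mutants 1 to 5 stood at 13.98, 11.6, 15.6, 6.90 and 20.2 CPM, so mutant 5 lay just inside the range of the controls and the other 4 below it. The means were 55.8 ± 48.8 CPM (SD, n = 6) and 13.7 ± 4.91 CPM (SD, n = 5), a 4.09-fold fall (log2 fold change -2.03, SE 0.495, edgeR adjusted p = 0.0300). Controls 5 and 4 were again the highest, at 146 and 75.4 CPM.

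Neither call rested on a wide margin. Leaving out control 4, mutant 1, mutant 3 or mutant 4 took the adjusted p of Arc over 0.05, to at most 0.0646, and the same 4 libraries or mutant 2 did so for Npas4, to at most 0.0806. Over all 11 such fits the log2 fold change stayed between -2.14 and -1.44 for Arc and between -2.22 and -1.47 for Npas4.

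**Figure D1:**
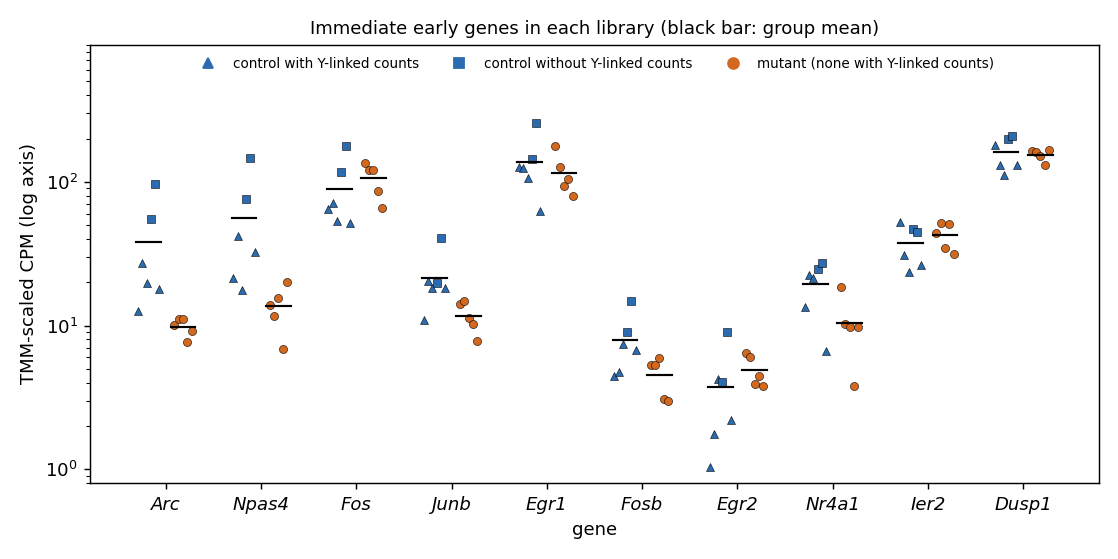
TMM-scaled CPM (log axis) of each of the 10 genes in 6 control and 5 mutant libraries, with a black bar at each group mean; triangles are controls with counts of Y-linked genes, squares the controls without, and circles mutants. For Arc all circles lie under all control points (at most 11.2 against at least 12.6 CPM), while for each of the other genes the groups overlap.

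Fos, Junb and Egr1 did not pass the edgeR test. Fos (ENSMUSG00000021250, chromosome 12, 85473890 to 85477273, plus strand), a subunit of the AP-1 transcription factor, stood at 51.8, 68.1 and 177 CPM in the lowest, the median and the highest control. In mutants 1 to 5 it stood at 136, 120, 122, 86.5 and 65.9 CPM, all above that lowest control and all below control 5. The means were 89.4 ± 49.2 CPM (SD, n = 6) and 106 ± 28.8 CPM (SD, n = 5), with a log2 fold change of 0.25 (SE 0.302, edgeR adjusted p = 0.746). Egr1 (ENSMUSG00000038418, chromosome 18, 34859823 to 34864984, plus strand), a zinc finger transcription factor gene, stood at 62.8, 126 and 256 CPM in the lowest, the median and the highest control and at 176, 126, 93.2, 104 and 79.5 CPM in mutants 1 to 5. All 5 mutants lay within the range of the controls (means 137 ± 64.7 CPM, SD, n = 6, and 116 ± 37.9 CPM, SD, n = 5; log2 fold change -0.24, SE 0.286, edgeR adjusted p = 0.736).

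Junb (ENSMUSG00000052837, chromosome 8, 84974484 to 84978718, minus strand) encodes another AP-1 subunit. It stood at 10.9, 19.0 and 40.9 CPM in the lowest, the median and the highest control and at 14.1, 14.9, 11.4, 10.3 and 7.81 CPM in mutants 1 to 5. The mutants lay below 5 of the 6 controls and only control 1 was among them. The log2 fold change was -0.87 (SE 0.297, edgeR adjusted p = 0.125, and 0.0493 with DESeq2). Exons of Junb overlap 173 bases of Prdx2, a gene on the opposite strand at 880 CPM by library totals, and the strand setting of the counting is not given in the sources used here, so its counts are uncertain.

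The other AP-1 and nuclear factor genes were split in direction and none passed. Fosb (chromosome 7, 19302696 to 19310051, minus strand), whose product pairs with Jun proteins as that of Fos does, had means of 7.87 ± 3.79 and 4.52 ± 1.38 CPM in control and mutant libraries (SD, n = 6 and 5; log2 fold change -0.80, SE 0.353, edgeR adjusted p = 0.251). All 5 mutants lay below the mean of the controls, from 2.99 to 5.91 CPM, and 2 of them below the lowest control at 4.46 CPM. Nr4a1 (chromosome 15, 101254269 to 101274795, plus strand), an orphan nuclear receptor gene, had means of 19.3 ± 7.73 and 10.4 ± 5.24 CPM (log2 fold change -0.89, SE 0.384, edgeR adjusted p = 0.244). Its mutants ranged from 3.82 CPM in mutant 4 to 18.5 CPM in mutant 1, and the groups overlapped, with control 6 at 6.66 CPM. Egr2 (chromosome 10, 67535475 to 67542188, plus strand), a relative of Egr1, went the other way, with means of 3.73 ± 2.88 and 4.93 ± 1.22 CPM (log2 fold change 0.40, SE 0.467, edgeR adjusted p = 0.729). Its lowest count was 7, in control 1, where counting error alone comes to 37.8% of the value.

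Ier2 and Dusp1 showed the smallest differences. Ier2 (chromosome 8, 84661331 to 84662852, minus strand), which encodes a nuclear protein induced by growth factors, had means of 37.6 ± 11.99 and 42.6 ± 9.31 CPM (control and mutant, SD, n = 6 and 5; log2 fold change 0.18, SE 0.225, edgeR adjusted p = 0.75). Dusp1 (chromosome 17, 26505590 to 26562128, minus strand) stood at 160 ± 40.6 and 155 ± 14.4 CPM (log2 fold change -0.05, SE 0.160, edgeR adjusted p = 0.92). Its mutants, from 131 to 167 CPM, all lay within the range of the controls, from 111 to 208 CPM. Exons of Dusp1 overlap 11 bases of Ergic1 on the opposite strand.

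Counts of 2 genes within the same library do not depend on how libraries are scaled. Per Fos count controls held 0.196 to 0.544 Arc counts, and mutants 0.0742 to 0.139, so the lowest control was 1.41 times the highest mutant. For Npas4 the controls ranged from 0.328 to 0.825, while mutant 5 stood at 0.306 and the other mutants between 0.0797 and 0.129. Junb and Fosb also separated the groups on this scale, at 0.167 to 0.35 and 0.0662 to 0.14 per Fos count in the controls against 0.0935 to 0.124 and 0.0355 to 0.0486 in the mutants. Arc, Npas4, Junb and Fosb, 4 of the 9 genes, were thus lower in every mutant than in every control relative to Fos, an order seen for 0.588% of all genes tested. This rests on Fos as the reference: relative to Egr1 it held for 0 of the 9 genes and for 0.163% of all genes. The ratio of Arc to Npas4 did not separate the groups (0.552 to 1.13 in the controls, 0.453 to 1.11 in the mutants).

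**Figure D2:**
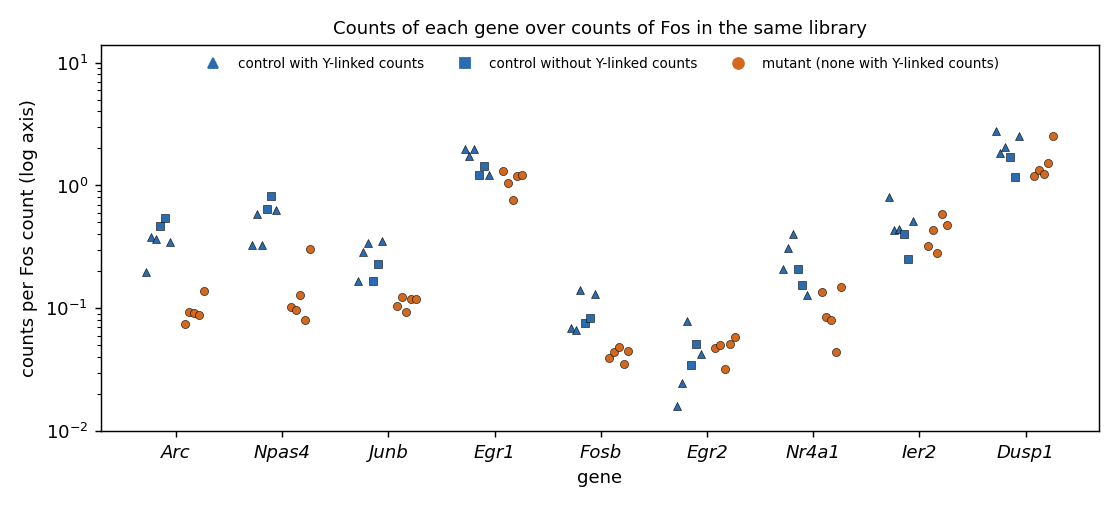
Counts of 9 genes divided by the counts of Fos in the same library (log axis), with the same symbols for controls with and without Y-linked counts and for mutants. For Arc, Npas4, Junb and Fosb every mutant lies under every control, and for Npas4 the margin is narrow (0.306 in mutant 5 against 0.328 in control 3).

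Per kilobase of exon, Dusp1 and Fos had the highest mean levels in both groups. In the controls the order was Dusp1 at 48.4 ± 12.3 CPM per kb, Fos at 38.0 ± 20.9, Egr1 at 30.5 ± 14.4, Ier2 at 24.7 ± 7.88, Npas4 at 13.5 ± 11.8, Arc at 12.5 ± 10.5, Junb at 9.29 ± 4.41, Nr4a1 at 5.50 ± 2.20, Fosb at 1.26 ± 0.607 and Egr2 at 1.10 ± 0.848 (SD, n = 6). The ranges of all neighbours in this order overlapped. Per kilobase Npas4 exceeded Arc in 5 of the 6 controls, and Arc exceeded Junb in 3. In the mutants Junb came before Npas4 and Arc, at 5.07 ± 1.24 against 3.30 ± 1.19 and 3.22 ± 0.484 CPM per kb (SD, n = 5), and Egr1, the gene next above them at 25.8 ± 8.46, did not overlap with Junb in range.

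Over all 6 controls Arc and Npas4 had a wider spread than over the mutants. In the controls the highest library was 7.62 times the lowest for Arc and 8.31 times for Npas4, and in the mutants 1.46 and 2.93 times. The top of the control range was controls 4 and 5, those without Y-linked counts. The 4 controls with such counts spanned 12.6 to 27.4 CPM for Arc and 17.6 to 42.0 CPM for Npas4. The mutants spanned 7.65 to 11.2 and 6.90 to 20.2 CPM. The values that follow include controls 4 and 5. The coefficient of variation was larger in the controls than in the mutants for 9 of the 10 genes, all except Nr4a1, and for 57.8% of all genes tested. Within groups Npas4 and Arc varied more between libraries than most genes, with a standard deviation of log2(CPM + 1) of 0.91 and 0.81, at the 97.4th and the 94.9th percentile of all genes tested. Dusp1 was the steadiest of the 10, at 0.29 and the 37.9th percentile.

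Most of the 10 genes varied with Fos between libraries of the same group by Pearson's r, but no relation passed the adjusted threshold without control 5. After removal of the group means, the level of Fos in log2(CPM + 1) was related to that of Arc with Pearson's r of 0.866 and Spearman's rho of 0.809 over 11 libraries (permutation p = 0.00053 and 0.00423, adjusted over 9 relations 0.00261 and 0.019). The permutations shuffled deviations across both groups, although the controls spread more widely than the mutants for most of these genes. The p-values over both groups are therefore approximate and may be too small. For Egr1 r was 0.857, for Fosb 0.808, for Junb 0.787, for Npas4 0.735, for Egr2 and Dusp1 0.701 each, and 7 of the 9 relations passed by r at an adjusted permutation p of 0.05. By Spearman's rho 5 passed: Npas4 and Egr2 (adjusted permutation p = 0.0728 each) and Dusp1 (0.0947) did not, and Nr4a1 did (0.0447). By r, Nr4a1 at 0.597 and Ier2 at 0.573 did not pass (adjusted permutation p = 0.0612 and 0.066). Controls 4 and 5 were the libraries farthest from the median of Fos, and without both r was 0.38 for Arc, 0.0383 for Npas4, 0.0989 for Egr2, 0.203 for Dusp1 and 0.726 for Egr1, and 0 of the 9 passed, with unadjusted permutation p = 0.0269 for Egr1 alone under 0.05. The other r without both lay between 0.397 for Ier2 and 0.567 for Junb, and rho ran from 0.183 for Dusp1 to 0.7 for Egr1. Passing the threshold rested on control 5: without it alone 0 passed by either measure, whereas without control 4 alone 7 passed by r and 2 by rho. Without control 5 alone r ran from 0.39 for Egr2 to 0.737 for Egr1, with Arc at 0.722. The unadjusted permutation p was 0.0154 for Egr1 and 0.0176 for Arc (adjusted 0.0793 for each). In the 6 controls by themselves r was 0.94 for Arc and 0.938 for Npas4 (exact permutation, adjusted p = 0.0375 for each), and 0 passed by rho (exact permutation, adjusted p = 0.105 for each of these).

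**Figure D3:**
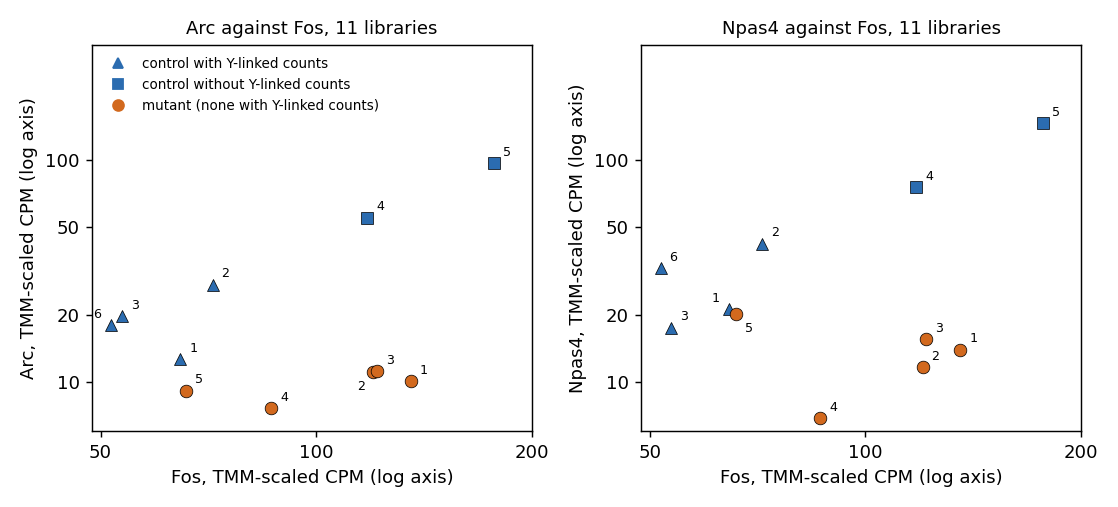
Arc (left) and Npas4 (right) against Fos, all in TMM-scaled CPM on log axes, with 1 point per library and its replicate number. Controls 4 and 5 sit at the top right, and mutants 1, 2 and 3, whose Fos lies between 120 and 136 CPM, hold at most 15.6 CPM of Npas4 and 11.2 CPM of Arc.

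The controls without Y-linked counts, controls 4 and 5, had the highest Arc, Npas4, Fos, Egr1, Fosb, Nr4a1 and Dusp1 of the 6 controls, so the size of each difference moved with the controls used. Against these 2 alone, in a comparison of libraries that all lack Y-linked counts, the log2 fold change was -2.94 for Arc and -3.01 for Npas4 (edgeR adjusted p = 0.000215 and 0.00122), and both calls held. Against the 4 controls with Y-linked counts, a comparison chosen after seeing the data in which sex and genotype cannot be told apart, it was -0.997 for Arc and -1.06 for Npas4 (edgeR adjusted p = 0.0597 and 0.12). The direction of Fos depended on the set, at -0.47 in the former and 0.80 in the latter (edgeR adjusted p = 0.525 and 0.0596). With a covariate for Y-linked expression Arc and Npas4 stayed called, at -2.88 and -2.97. All mutants held 0 Y-linked counts, so this fit leans on controls 4 and 5 and is not a check separate from the comparison with these 2.

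**Figure D4:**
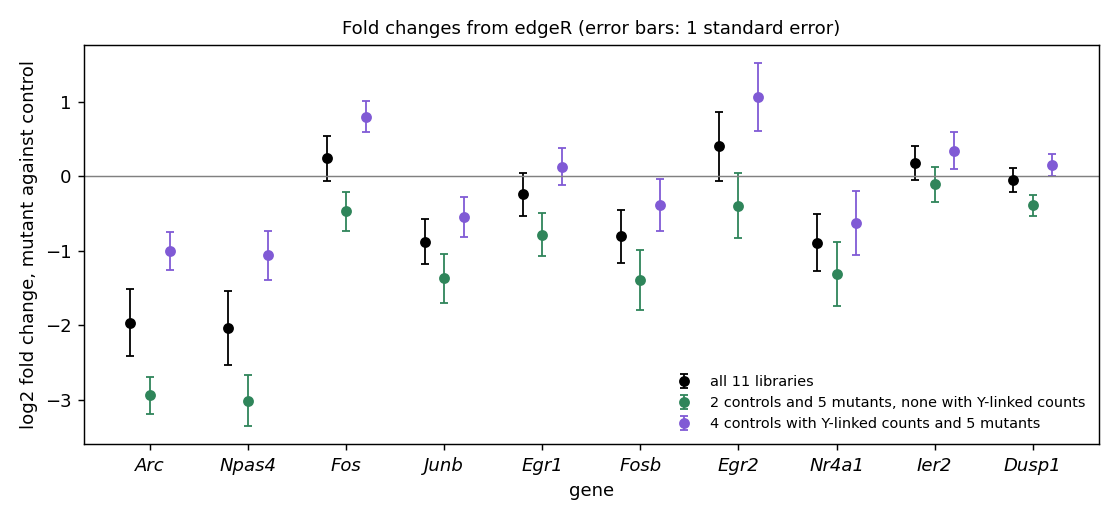
Log2 fold changes (mutant against control, edgeR, error bars of 1 standard error) of the 10 genes in all 11 libraries, in the 7 libraries without Y-linked counts, and without the controls that lack them. Arc and Npas4 are the lowest in each set, from -3.01 to -0.997, and Fos, Egr1, Egr2, Ier2 and Dusp1 change sign between sets.

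Among 46 further immediate early genes, 36 passed the filter, 2 fell, 1 rose and 33 did not pass, with a median log2 fold change of -0.17. Of all genes tested 1.74% were called lower and 2.68% higher. At an unadjusted edgeR p under 0.05 there were 9 of the 36, where 8.35% of all genes were lower and 8.96% higher. Whether this list differs from all genes was not tested. Rgs2, which encodes a regulator of G protein signalling, fell from 212 ± 74.8 to 77.1 ± 21.5 CPM (SD, n = 6 and 5; log2 fold change -1.46, SE 0.226, edgeR adjusted p = 0.00129). It stood at 147 CPM or more in each control and at 114 or less in each mutant, and its call held in all 11 fits without 1 library. Myc, a transcription factor gene of growth and proliferation, had means of 53.9 ± 7.45 and 28.4 ± 5.95 CPM and fell (log2 fold change -0.92, SE 0.168, edgeR adjusted p = 0.00424), and its call was lost among the libraries without Y-linked counts (-0.94, adjusted p = 0.0885). Tiparp, which encodes a poly(ADP-ribose) polymerase induced by the aryl hydrocarbon receptor, had means of 61.3 ± 8.41 and 95.0 ± 21.1 CPM and rose (log2 fold change 0.63, SE 0.154, edgeR adjusted p = 0.0295). This call was lost when any of controls 2 and 3 and mutants 1, 3 and 4 was left out (5 of 11 fits). Over all 11 such fits its log2 fold change was 0.50 to 0.72. The call was also lost among the libraries without Y-linked counts (0.52, edgeR adjusted p = 0.383).

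Lists of genes that act before or after the immediate early genes held some calls, where 4.42% of all genes tested were called, 1.74% lower and 2.68% higher. At an unadjusted edgeR p under 0.05 the shares of all genes were 8.35% lower and 8.96% higher. Whether any of these lists differs from all genes was not tested. Of 22 later activity-regulated genes 19 were tested, and Scg2 and Stac rose while 17 did not pass (edgeR; 4 at an unadjusted p under 0.05, median -0.06). Scg2, the secretogranin II gene of secretory vesicles, went from 25.5 ± 10.05 to 51.5 ± 8.88 CPM (log2 fold change 1.01, SE 0.248, edgeR adjusted p = 0.0315), and its call was lost when any of controls 2, 3 and 4 and mutants 1, 2, 3 and 4 was left out (7 of 11 fits) and among the libraries without Y-linked counts (0.74, adjusted p = 0.338). Stac, which encodes an adaptor of calcium channels, had 2 counts in control 2 and 0 in the other controls, and 15 to 51 counts in the mutants. Of 16 MAP kinase phosphatase and feedback genes 15 were tested and none passed (edgeR; 3 at an unadjusted p under 0.05, median -0.10). All 37 upstream regulators were tested, among them the genes of CREB and serum response factor. Of these 1 rose, 1 fell and 35 did not pass (edgeR; 7 at an unadjusted p under 0.05, median -0.05). Cacna1d, a voltage-gated calcium channel gene, rose from 5.19 ± 1.24 to 11.9 ± 3.52 CPM (edgeR adjusted p = 0.0172), and its call was lost without mutant 1 (log2 fold change 1.04 against 1.197 in all libraries, adjusted p = 0.0649) and among the libraries without Y-linked counts (1.42, adjusted p = 0.143). Rps6ka2, a kinase gene downstream of ERK, fell from 45.2 ± 12.1 to 24.3 ± 7.74 CPM (edgeR adjusted p = 0.0452) and kept its call in 11 fits that each leave out a library only without mutant 1 or mutant 5. Among the libraries without Y-linked counts its log2 fold change was -0.91 against -0.90 in all libraries (adjusted p = 0.253).

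Genes of heat shock and of dissociation stress held no calls, where 4.42% of all genes tested were called. Lists this short would hold few calls at that share, so this does not show that the groups were alike. At an unadjusted edgeR p under 0.05 the shares of all genes were 8.35% lower and 8.96% higher. None of 16 tested heat shock genes passed (edgeR; 3 at an unadjusted p under 0.05), with a median log2 fold change of -0.07, and their summed level was 3119 to 3522 CPM in the controls and 2860 to 3616 CPM in the mutants. None of 18 tested genes of a further stress and dissociation list passed (2 at an unadjusted p under 0.05), with a median of 0.08 and sums of 1539 to 1954 CPM and 1850 to 2082 CPM. Hsp90ab1, the most abundant heat shock gene, stood at 1862 ± 216 and 1772 ± 204 CPM (SD, n = 6 and 5). The cytokine genes Ccl3, Ccl4, Tnf and Il1b had 0 counts in all 11 libraries.

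**Figure D5:**
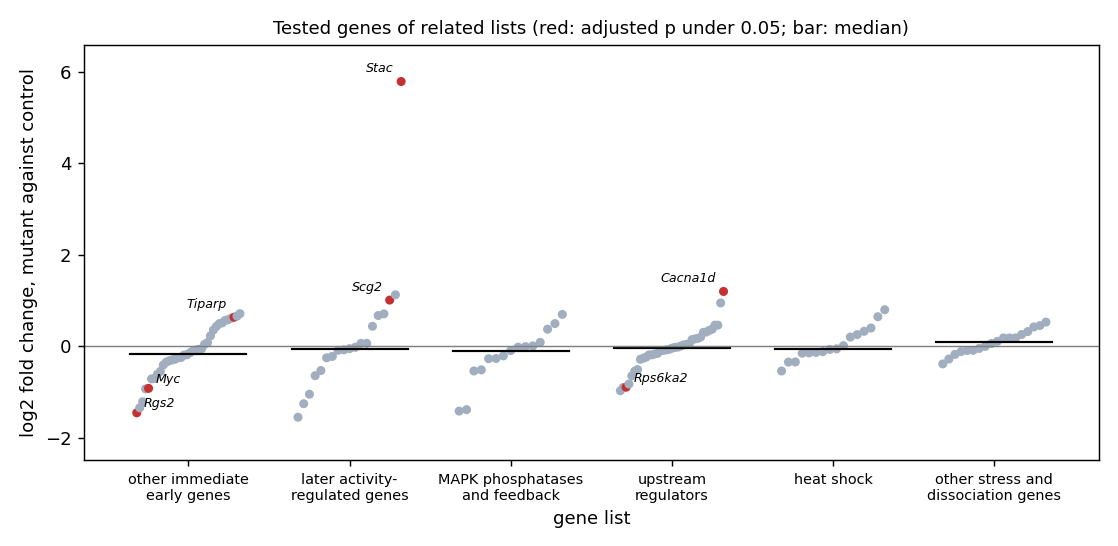
Log2 fold changes (mutant against control, edgeR) of the tested genes of 6 lists related to immediate early genes, sorted within each list, with red points past an adjusted p of 0.05 and a bar at each median. The medians lie between -0.17 and 0.08, and Rgs2 is the lowest gene of its list at -1.46.

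Some markers of cell types also differed between the groups. Of all genes tested 1.74% were called lower and 2.68% higher, and 8.35% and 8.96% were so at an unadjusted edgeR p under 0.05. Of 20 genes of striatal projection neurons 9 fell and 2 rose, and 16 had an unadjusted edgeR p under 0.05 (median log2 fold change -1.40). This list was chosen with its results known, so these counts are not a test. The summed level of the 20 genes was 1423 to 3285 CPM in the controls and 997 to 1320 CPM in the mutants, with control 5 highest and control 1 lowest among the controls. In these sorted pools fewer cells of a type and less RNA per cell cannot be told apart, and the part of these genes in the fall of Arc and Npas4 was not tested. Of 9 excitatory neuron genes 7 were tested and 1 rose (edgeR; 1 at an unadjusted p under 0.05), with sums of 10.2 to 69.2 CPM and 29.9 to 122 CPM. Slc17a7 had at most 3 counts in any library. Of 15 microglial genes 2 were tested and none passed (edgeR; 0 at an unadjusted p under 0.05), with sums of 14.6 to 42.2 and 25.5 to 46.0 CPM. Of 14 endothelial and mural genes 4 were tested and none passed (1 at an unadjusted p under 0.05), with sums of 55.8 to 238 and 39.1 to 68.1 CPM. Tek had 0 counts in all libraries. Cspg4 was the highest of the 4 tested, at 77.4 ± 60.2 and 26.8 ± 10.8 CPM, so the sum followed mainly that gene. Control 6 had the highest sum of this list, 238 CPM, and of the oligodendrocyte lineage genes, 2688 CPM. Oligodendrocyte lineage genes (10 tested, 1 higher, 1 lower) summed to 1038 to 2688 and 799 to 1240 CPM. The median log2 fold change of these 10 was -0.58, and 6 had an unadjusted edgeR p under 0.05. Astrocyte genes (9 of 10 tested, 1 lower, 1 at an unadjusted p under 0.05) summed to 508 to 1188 and 499 to 1106 CPM. Ependymal and choroid plexus genes (4 of 10 tested, none called, 0 at an unadjusted p under 0.05) summed to 221 CPM in mutant 5 and to 7.29 to 21.0 CPM in the other 10 libraries. Mutant 5 is also the mutant within the control range for Npas4 and the one with the lowest Fos, and without it the log2 fold change was -1.94 for Arc and -2.22 for Npas4, with both calls held.

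Among the genes whose within-group deviations most resembled those of Arc over the 11 libraries were Zfp955a (Pearson's r 0.912), Xist (0.907), Rad17 (0.906) and Cry1 (0.898), out of 11244 genes with a mean of at least 5 CPM. The same measure gave 0.898 for Npas4. For the mean of Fos, Junb and Egr1 they were Siae (0.96), Zc3h12c (0.949), Foxj3 (0.916), Ppfia2 (0.912) and Shoc2 (0.907), against 0.853 for Arc and 0.679 for Npas4. These values describe 11 libraries that share controls 4 and 5 as extremes, and Xist is high in the controls without Y-linked counts by its nature.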

How the data were processed

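The deposited values were raw read counts per Ensembl gene in 11 libraries. Counts came from TopHat2 2.0.13 and featureCounts 1.4.6 with builds mm10 and GRCm38, per the submitters' processing notes. Gene models, strandedness and multi-mapping rules used in that step: not given in the sources used here. GENCODE M21 (GRCm38) supplied coordinates, and 37607 of 39179 identifiers received a symbol. No pair of replicate libraries agreed within sampling noise (lowest chi-square divided by its degrees of freedom 13.7), so each counted as 1 sample.

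The test was edgeR 4.0.16 under R 4.3.3 (filterByExpr, TMM, robust quasi-likelihood fit on genotype alone), with Benjamini-Hochberg adjustment over 14104 genes. Standard errors came from the fold change and the F statistic. The fit was checked on simulated counts. Relations between genes used 100000 permutations, or all orders for 6 libraries, in Python 3.11.15. Alternatives used DESeq2 1.42.0, limma-voom (limma 3.58.1), RLE, upper quartile and library totals, other filters and thresholds, each library left out, a replicate block, a Y-linked covariate, libraries without Y-linked counts, and counts without Gm42418.

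The 10 genes and the lists were chosen with earlier results of these data known. The rule for named genes took the 10 genes, up to 4 called genes of each list by smallest adjusted p (or up to 2 of the highest level where none was called), and the 5 genes most like each of 2 profiles, of which 1 is not reported here; those of the marker lists are given as counts and sums. The comparison without controls 4 and 5 and the list of striatal projection genes were added after seeing the data.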

Additional observations from a re-analysis of the deposited data

Results flagged for a closer look

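Junb in control 5 stood apart from the other controls, at 40.9 CPM against 20.4 CPM in the next, control 2. It was the only such value among 20 checks (10 genes in 2 groups), and chance alone flags about 1 in 20. Control 5 was also the highest control for Arc, Npas4, Fos, Egr1, Fosb, Egr2, Nr4a1 and Dusp1.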

How the results depend on the processing

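Arc and Npas4 kept their direction in all alternatives, with log2 fold changes from -2.94 to -0.997 and from -3.01 to -1.06. The 2 members called lower became 3 with DESeq2 (Junb added, adjusted p = 0.0493), 1 with no filter on low counts, 0 with limma-voom (adjusted p = 0.0712 for Arc and 0.0804 for Npas4), 0 without the controls that lack Y-linked counts, 0 at a threshold of 0.01, and 0 to 2 in the fits without 1 library; 0 members were called higher in any. All genes called numbered 623, and 1108 with DESeq2, 186 with the Y-linked covariate, 218 among libraries without Y-linked counts, 286 and 976 at thresholds of 0.01 and 0.1, and 418 to 656 without 1 library. Replicate numbers did not pair the libraries (correlation of deviations over genes from -0.18 to 0.02); with a replicate block 0 members were called, at -1.75 for Arc and -1.80 for Npas4 (adjusted p = 0.0623 and 0.0655), and 421 genes in all, against 656 in the same libraries without the block. Members that did not pass reversed in places. With the Y-linked covariate and among libraries without Y-linked counts, Fos was at -0.44 and -0.47, Egr2 at -0.36 and -0.40 and Ier2 at -0.12 and -0.11. Without the controls that lack Y-linked counts Egr1 was at 0.13 and Dusp1 at 0.16. Without control 5 Egr1 was at 0.034 and Dusp1 at 0.040; Dusp1 was at 0.025 without control 4 and 0.0055 without mutant 4, and the fits without 1 library spanned -0.44 to 0.034 for Egr1 and -0.135 to 0.040 for Dusp1. Of the 9 relations with Fos 7 passed by Pearson's r; 0 passed without controls 4 and 5, 3 in the controls alone, and 0 (without control 5) to 9 without 1 library. The causes were not tested, and 2 controls without Y-linked counts limit that comparison.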

Other observations

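Jun, which encodes the main partner of Fos proteins in AP-1, had means of 236 ± 42.5 and 319 ± 28.4 CPM (control and mutant, SD, n = 6 and 5; log2 fold change 0.43, SE 0.123, edgeR adjusted p = 0.0632). Plk2, a kinase gene induced by synaptic activity, stood at 456 ± 134 and 277 ± 62.9 CPM (log2 fold change -0.72, SE 0.199, edgeR adjusted p = 0.0564). Spry4, a feedback inhibitor of growth factor signalling, stood at 27.7 ± 13.3 and 10.6 ± 5.08 CPM (log2 fold change -1.39, SE 0.391, edgeR adjusted p = 0.0589), and Penk, an opioid peptide gene, at 71.5 ± 41.9 and 34.5 ± 10.5 CPM (edgeR adjusted p = 0.204). These 4 genes did not pass the test and were chosen after their values were seen.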
